A study of Mus musculus with 6 samples.

Results

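A set of 34 genes of the heat-shock and chaperone system was followed by RNA sequencing in naive B cells of mouse spleen. They were found by exact gene symbol, and all 34 were present among the 41053 gene names of the count table. The set holds the heat-shock transcription factors, the cytosolic HSP70, HSP110 and HSP90 chaperones with their partner proteins, the mitochondrial chaperones, 5 subunits of the TRiC folding chamber, and the cold-inducible RNA-binding proteins Cirbp and Rbm3. Its members were chosen by gene function with 1 contrast of the measured counts in view, library 4 against libraries 2 and 3 within each genotype. Values of that contrast are therefore given as a description, with no test.

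The study compared the TET2 Knock-Out genotype with TET2 wild type, both of the C57BL/6 strain and with no treatment listed, in 3 libraries each. TET2 is an enzyme that oxidises methylated cytosine in DNA. The libraries of each genotype are numbered 2, 3 and 4. The labels give neither age nor sex nor the design of the Tet2 allele, and do not say whether libraries came from separate mice, so that the p-values rest on a spread among 6 libraries that may be only technical. Nor do they say what the numbers mark.

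Heat-shock proteins bind unfolded protein and help it to fold, to reach its compartment or to be degraded. In resting cells the transcription factor HSF1 is held inactive, in part by the chaperones themselves, and heat or other protein-damaging stress frees it to bind heat-shock elements, inverted repeats of the unit GAA in promoters. Cirbp and Rbm3 are known for the opposite behaviour, since their messages accumulate under mild cooling and decline with warmth. Naive B cells are small resting lymphocytes that have not met antigen, with a modest rate of protein synthesis until they are activated.

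Library totals ranged from 35101788 to 45401781 counts, and all 34 genes were among the 13604 that passed the filter on low counts. Levels are given as CPM, counts scaled to a common normalised library total (TMM), on which 3 counts correspond to 0.0679 to 0.0856 CPM. The 11 B cell markers in the table summed to 21530 to 26940 CPM, against 48.6 to 67.6 CPM for T cell (95.2% of it Lck), 26.3 to 36.8 for myeloid, 4.12 to 6.11 for dendritic cell and 1.44 to 2.53 for NK cell markers. Plasma cell markers summed to 391.9 to 465 CPM, 64.7% of it Irf4, and stromal and endothelial markers to 309 to 424 CPM, 99.6% of it Pecam1. No marker was at 0 in every library, and 0 of the markers were called between genotypes. Whole-gene Tet2 counts overlapped between the genotypes, at 59.4, 64.8 and 50.02 CPM in the knockout and 74.6, 83.2 and 56.8 CPM in wild type (edgeR adjusted p = 0.408). In libraries 2 and 3 both knockout values lay below both wild-type ones, and with a term for library 4 in the fit the edgeR adjusted p was 0.0420. The deleted stretch was not analysed here. Y-linked Kdm5d stood at 23.3 to 34.9 CPM in the knockout libraries and at 0 to 0.0571 CPM in wild type. Y-linked Ddx3y stood at 38.0 to 85.9 against 0 to 0.0455 CPM, and Xist at 802 to 887 against 1442 to 1536 CPM. Each knockout library thus held Y-linked RNA and Xist together, so that from these transcripts it cannot be assigned to a single sex. What mix of cells or mice lies behind this was not tested. Sex-linked transcripts moved with genotype, and sex and genotype cannot be told apart.

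Heat-shock elements near the transcription starts are shown first, because they are the sequence feature by which HSF1 reaches its targets. The set was drawn in part from known HSF1 targets, so a high share of elements in it is not independent of the choice. RefSeq promoter windows (GRCm38.p6, from 250 bases before to 50 bases after a start) were matched by symbol for 27 of the 34 genes. None was matched for Hspa8, Hsp90aa1, Hsp90ab1, Hsf1, St13, Hspa9 or Rbm3. A 3-repeat element was searched as GAANNTTCNNGAA or TTCNNGAANNTTC and a 2-repeat element as GAANNTTC or TTCNNGAA. Each 3-repeat match also contains 2-repeat matches. The 3-repeat patterns are reverse complements of each other and each 2-repeat pattern is that of itself, so that both strands were covered. The 3-repeat element occurred in 5 of the 27 genes (18.5%), Hspd1, Hspe1, Dnajb6, Hsph1 and Chordc1, against 0.662% of 27025 genes with a window (0.603% of 32851 windows). A 2-repeat element occurred in 13 of 27 (48.1%), against 4587 of the 27025 genes and 15.1% of windows.

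The promoters of the stress-inducible HSP70 pair Hspa1a and Hspa1b are printed because these genes had the largest library differences, that of Cirbp because it was lower where the chaperones were higher, and short sites in the other genes show how the element varies. Capitals mark exact matches to the heat-shock element patterns above, with none in the stretch of Cirbp, and lower case is the remaining sequence. The stretch of Cirbp ends 62 bases before the start at base 80167839, because the next 61 bases overlap an annotated Cirbp exon. It lies inside the annotated gene, which begins at base 80165985. The full windows of this start and of another, at base 80168171, held no match. Imperfect repeats were not searched, so lower case is not shown to be free of them. Hspa1a, Hspa1b, Dnaja1, Hsph1 and Cirbp follow from a rule on the size of the library ratio, whereas Chordc1, Hspe1, Hspd1 and Dnajb6 were chosen after their values were seen. The sequences are RefSeq promoter windows of GRCm38.p6, written 5′ to 3′ on the gene's own strand, at chr17:34972157-34972406 (minus) for Hspa1a, chr17:34959239-34959488 (minus) for Hspa1b, chr10:80167589-80167777 (plus) for Cirbp, chr4:40722339-40722356 (plus) for Dnaja1, chr5:149636287-149636305 (minus) for Hsph1, chr9:18292260-18292288 (plus) for Chordc1, chr1:55088054-55088081 for Hspe1 (plus) and Hspd1 (minus), and chr5:29735847-29735869 (plus) for Dnajb6.
Hspa1a: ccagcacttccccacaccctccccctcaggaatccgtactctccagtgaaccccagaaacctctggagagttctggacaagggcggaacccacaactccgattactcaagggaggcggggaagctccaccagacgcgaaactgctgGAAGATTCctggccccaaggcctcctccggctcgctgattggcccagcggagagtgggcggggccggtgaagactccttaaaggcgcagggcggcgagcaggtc
Hspa1b: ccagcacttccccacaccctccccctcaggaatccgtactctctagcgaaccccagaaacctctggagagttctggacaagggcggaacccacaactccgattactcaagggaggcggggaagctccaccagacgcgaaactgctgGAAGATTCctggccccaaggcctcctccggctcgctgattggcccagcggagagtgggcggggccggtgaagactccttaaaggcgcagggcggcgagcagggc
Dnaja1: ctctaGAAAATTCtacga
Hsph1: gcagaTTCTGGAAAGTTCt
Chordc1: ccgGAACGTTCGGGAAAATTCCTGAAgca
Hspe1: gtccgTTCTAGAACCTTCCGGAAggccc
Hspd1: gggccTTCCGGAAGGTTCTAGAAcggac
Dnajb6: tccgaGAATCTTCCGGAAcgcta
Cirbp: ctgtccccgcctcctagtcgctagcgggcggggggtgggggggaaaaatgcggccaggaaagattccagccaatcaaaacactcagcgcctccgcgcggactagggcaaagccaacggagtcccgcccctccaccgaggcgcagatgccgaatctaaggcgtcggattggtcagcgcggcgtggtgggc
The upstream 250 bases of Hspa1a and Hspa1b were identical at 247 positions (98.8%), each with the same 2-repeat element 104 to 97 bases before the start. Hspe1 and Hspd1, the partner subunits of the mitochondrial folding chamber, lie head to head on chromosome 1, and their annotated exons share 112 bases. The same element lies upstream of the Hspe1 start and of the Hspd1 start at base 55087932. The window of another Hspd1 start, at base 55088243, held no match, and seen from that start the element lies inside the annotated gene. In Chordc1 3 overlapping 3-repeat matches ran across the start itself, from base -4 to base 19. In Hsph1 the 3-repeat element lay in the transcribed first exon, 37 to 49 bases after the start. Of the 12 genes that were at least 1.5-fold higher in library 4 in both genotypes, 10 had a window, 3 of them with a 3-repeat and 6 with a 2-repeat element. Element and ratio did not always go together. Dnajb6 holds a 3-repeat element and its library 4 ratios were 1.06 and 1.12, while Dnajb1, Cacybp, Ptges3 and Stip1 had no match in these windows. A match describes letters only, and binding of HSF1 was not measured.

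**Figure D1:**
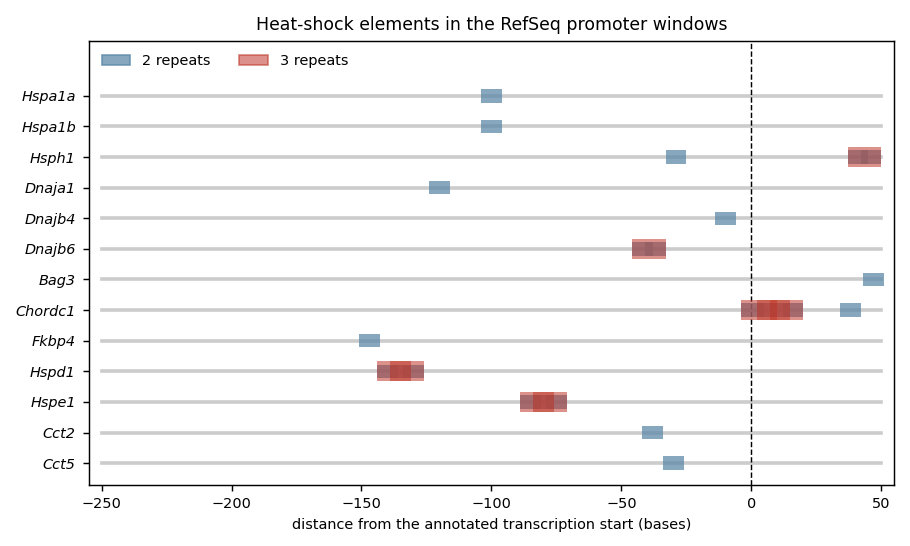
Positions of heat-shock elements in the RefSeq windows of the 13 genes with a match; the x axis is the distance in bases from the annotated start (dashed line), grey lines are the windows, blue boxes 2-repeat and red boxes 3-repeat matches, which overlap. The 3-repeat matches of Chordc1 span the start, and Hspa1a and Hspa1b have their 2-repeat match at the same distance.

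In both genotypes library 4 held more chaperone RNA than libraries 2 and 3. The 34 genes together took 0.522, 0.535 and 0.680% of all counts in knockout libraries 2, 3 and 4, and 0.441, 0.450 and 0.672% in wild-type libraries 2, 3 and 4. For each gene the ratio of library 4 to the mean of libraries 2 and 3 was computed from CPM with 0.5 CPM added, which understates the ratio of the lowest genes. The ratio was at least 1.5-fold in both genotypes for 12 of 34 genes, and 0.316% of all tested genes passed the same threshold. It was at least 1.5-fold lower for 1 gene, Cirbp, against 0.904% of all tested genes. In 28 of 34 both libraries numbered 4 were above the other 4 libraries (17.5% of tested genes), and in 1, Cirbp again, both were below (18.6% of tested genes). Since this contrast chose the set, these counts are read no further. In bulk RNA more RNA per cell and a larger share of cells with that RNA cannot be told apart.

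**Figure D2:**
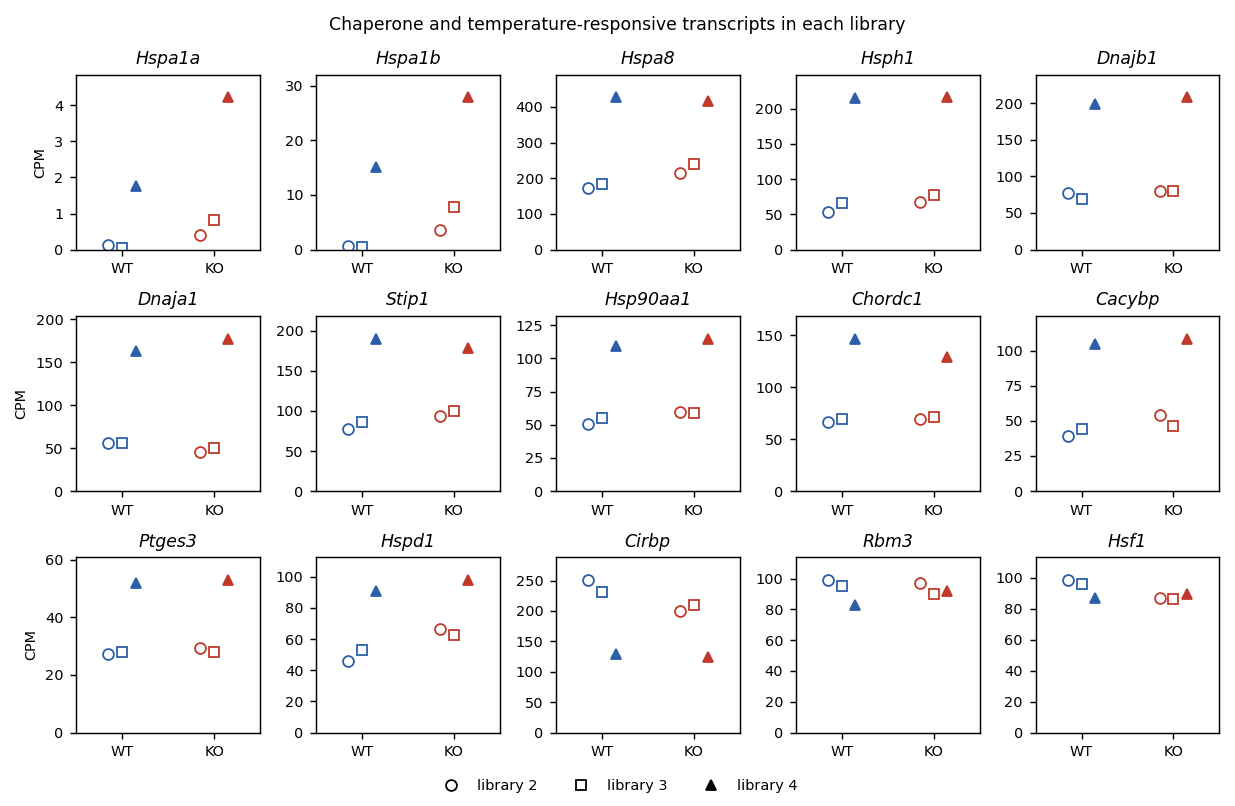
Levels in CPM (y axis, from 0) of 15 of the genes in each of the 6 libraries, wild type in blue and knockout in red; symbols stand for libraries 2 (circle), 3 (square) and 4 (filled triangle). Both triangles lie above the other 4 points in the first 12 panels and below them in that of Cirbp, and for Rbm3 and Hsf1 they lie within or next to them.

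Neither transcription factor of the set was among the 12 genes past the threshold. Hsf1, the main heat-stress factor, stood at 86.8, 86.2 and 89.2 CPM in the knockout and at 98.4, 95.7 and 87.2 CPM in wild type, here and below in the order of libraries 2, 3 and 4. The highest knockout and the lowest wild-type value, both from library 4, crossed. Hsf2, a related factor that can pair with HSF1, was low, at 6.29, 7.85 and 10.6 CPM in the knockout and 8.92, 8.82 and 9.02 CPM in wild type. Its wild-type libraries lay close together while its knockout libraries spread from below to above them.

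The stress-inducible HSP70 genes Hspa1a (chr17:34969190-34972156) and Hspa1b (chr17:34956436-34959238) were nearly silent in wild-type libraries 2 and 3 and clearly present in library 4. Hspa1b stood at 3.59, 7.72 and 27.9 CPM in the knockout and at 0.656, 0.4999 and 15.1 CPM in wild type, a library 4 ratio of 4.61 and 14.4. Hspa1a gave 18, 34 and 167 counts in the knockout libraries (0.409, 0.818 and 4.22 CPM) and 6, 2 and 62 counts in wild type (0.136, 0.0455 and 1.77 CPM). At so few counts the added 0.5 CPM decides which genotype has the larger step of Hspa1a: the ratios are 4.24 in the knockout and 3.84 in wild type with it, whereas the counts alone, an alternative chosen after seeing the data, give 6.95 (exact 95% interval 5.06 to 9.67) and 19.5 (9.31 to 47.2). For Hspa1b the counts alone give 4.98 (4.47 to 5.56) and 26.1 (19.5 to 35.5), in the same order as with the addition, and all these intervals cover counting error only. For both genes the order was wild-type libraries 2 and 3, knockout libraries 2 and 3, wild-type library 4 and knockout library 4, with no crossing between these 4 levels. The pair encodes nearly the same protein, and 60.3% of the 50-base words of Hspa1a transcripts also occur in another gene (58.8% in Hspa1b), so that the split of reads between them is uncertain, as is the part of Hspa1a, 19.0% of its exon bases, that overlaps an annotated gene on the opposite strand (Gm20481).

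Among the other cytosolic HSP70 and HSP110 chaperones, close relatives went separate ways. Hspa8 encodes the HSP70 made in unstressed cells, and it stood at 213, 239 and 418 CPM in the knockout and 172, 184 and 427 CPM in wild type, with library 4 ratios of 1.84 and 2.39. Hsph1 encodes the heat-inducible HSP110, a nucleotide exchange factor of HSP70, and stood at 67.0, 77.5 and 216 CPM in the knockout and 53.8, 66.8 and 215 CPM in wild type. Its ratios were 2.97 and 3.55, and the libraries numbered 4 were level across the genotypes. Hspa4, another HSP110, showed no such step, with 295, 296 and 288 CPM in the knockout and 241, 250 and 283 CPM in wild type. Hspa4l, the third HSP110, had ratios of 1.17 and 1.22. The level of Hspa8 is less certain than that of Hsph1, since 38.6% of its 50-base words occur in other genes.

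J-domain proteins deliver clients to HSP70 and start its ATP cycle. Dnajb1, the classic stress-inducible member, stood at 80.1, 80.6 and 208 CPM in the knockout and 77.0, 69.3 and 199 CPM in wild type, with ratios of 2.58 and 2.71. Dnaja1 stood at 45.3, 50.3 and 177 CPM in the knockout and 55.5, 56.2 and 163 CPM in wild type, with ratios of 3.67 and 2.89. In both genes the libraries numbered 4 stood far above the other 4, which lay close together. The paralog Dnaja2 had ratios of 1.16 and 1.28, and Dnajb6, a suppressor of protein aggregation, of 1.06 and 1.12. Dnajb4 fell just outside the 1.5-fold threshold with 1.74 and 1.48, as Hspd1 fell just inside it with 1.51 and 1.83. Of the exon bases of Dnaja1, 10.8% overlap other genes, among them Smu1 on the opposite strand.

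The HSP70 cochaperones were mixed. Stip1 encodes HOP, the bridge that passes clients from HSP70 to HSP90, and stood at 93.7, 99.8 and 178 CPM in the knockout and 77.9, 86.3 and 190 CPM in wild type. Its ratios of 1.84 and 2.31 were close to those of Hspa8. St13, which encodes the HSP70-interacting protein HIP, had ratios of 1.22 and 1.78. Bag3, an exchange factor for HSP70 that is strongly heat-inducible in many cell types, was near the limit of detection, with 8, 6 and 14 counts in the knockout (0.182, 0.144 and 0.354 CPM) and 33, 17 and 13 counts in wild type (0.747, 0.386 and 0.371 CPM). Its library 4 was the highest in the knockout and the lowest in wild type.

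For HSP90 the inducible and the constitutive gene could be compared directly. Hsp90aa1, the inducible form, stood at 59.6, 59.1 and 115 CPM in the knockout and 50.3, 54.99 and 110 CPM in wild type, with ratios of 1.93 and 2.07. Hsp90ab1, the constitutive form, was far more abundant, at 1639, 1663 and 1936 CPM in the knockout and 1137, 1169 and 1853 CPM in wild type, with ratios of 1.17 and 1.61. Per kilobase of exon, the mean level over libraries 2 and 3 was 467 CPM per kb for Hsp90ab1, the highest of the 34, and 14.2 CPM per kb for Hsp90aa1. For Hsp90aa1 47.5% of the 50-base words occur in other genes, so its level is less certain.

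All 6 HSP90 cochaperones had both libraries numbered 4 above the other 4, and 3 passed the threshold. Cacybp, a scaffold of ubiquitin ligase complexes, stood at 54.4, 46.2 and 108 CPM in the knockout and 39.0, 43.9 and 104 CPM in wild type. Chordc1, a zinc-binding partner of HSP90, stood at 69.6, 71.8 and 129 CPM in the knockout and 66.4, 69.2 and 147 CPM in wild type. Ptges3, or p23, which stabilises the closed form of HSP90, stood at 29.4, 27.9 and 52.8 CPM in the knockout and 27.1, 27.95 and 51.8 CPM in wild type. The step was of similar size in these 3, with ratios between 1.82 and 2.50 over both genotypes. The ATPase activator Ahsa1 had ratios of 1.25 and 1.65, the immunophilin Fkbp4 of 1.39 and 2.002, and Fkbp5, a glucocorticoid-inducible immunophilin, of 1.10 and 1.24.

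Of the mitochondrial chaperones, the pair that forms the HSP60 chamber differed from mitochondrial HSP70. Hspd1, which encodes HSP60, stood at 66.6, 62.9 and 97.8 CPM in the knockout and 46.0, 53.0 and 90.8 CPM in wild type. Of the 50-base words of Hspd1 39.7% occur in other genes, nearly all in the pseudogene Hspd1-ps3, so its level and its ratio just past the threshold are less certain; the shared part was 19.6% for Ptges3, 18.4% for Hspe1 and 11.9% for Dnaja1. Hspe1, its lid HSP10, had ratios of 1.44 and 2.28, and Hspa9, mitochondrial HSP70, had ratios of 1.02 and 1.11. Hspa9 stood at 226, 214 and 224 CPM in the knockout and 185, 186 and 206 CPM in wild type, so that its genotypes did not overlap. Its library 4 lay between libraries 2 and 3 in the knockout and above both in wild type. All 5 TRiC subunits, which fold actin and tubulin, had both libraries numbered 4 on top, but by less: the ratios ran from 1.06 to 1.20 in the knockout and from 1.22 to 1.49 in wild type.

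The cold-inducible genes parted from the chaperones and from each other. Cirbp stood at 200, 210 and 125 CPM in the knockout and 251, 231 and 129 CPM in wild type. Library 4 thus held 61.0% of the level of libraries 2 and 3 in the knockout and 53.6% in wild type, and both libraries numbered 4 lay below the other 4. Rbm3, which is X-linked, stood at 97.0, 90.1 and 92.3 CPM in the knockout and 98.9, 95.4 and 83.1 CPM in wild type, a range in which the knockout libraries overlap those of wild type. Of the RNA-binding pair, then, Cirbp went against the chaperones and Rbm3 stayed within a narrow range.

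Over the 34 genes the library 4 ratio was mostly the larger in wild type. The median log2 ratio was 0.35 in the knockout and 0.63 in wild type, where all tested genes had -0.02 and -0.01. In 26 of 34 genes the wild-type ratio was the larger, against 51.4% of tested genes, and in 27 with no 0.5 CPM added. The exceptions under both were Hsf1, Hsf2, Dnaja1, Dnajb4, Bag3, Cirbp and Rbm3, and Hspa1a was one only with the addition. Since the contrast is the one that chose the set, no more is read from these counts. The difference between the ratios of the genotypes has 1 library 4 on each side and was not tested.

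**Figure D3:**
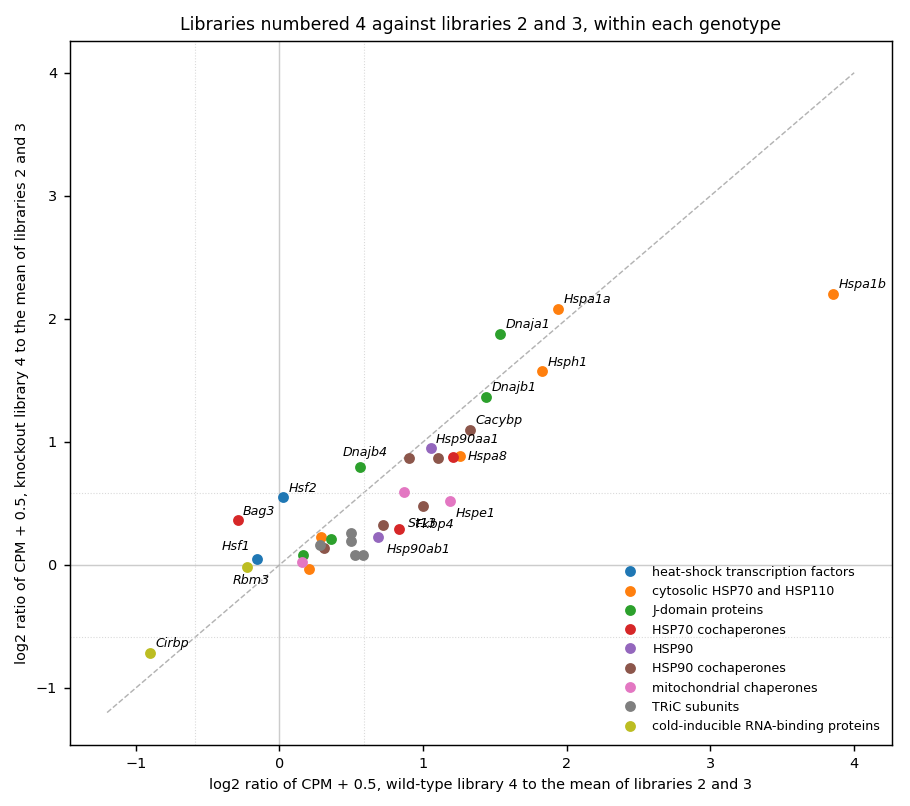
Log2 ratio of library 4 to the mean of libraries 2 and 3 (CPM + 0.5) in wild type (x axis) and knockout (y axis), 1 point per gene coloured by role, with dotted lines at 1.5-fold and a dashed line of equality. Most points lie below the dashed line, Hspa1b farthest, the side of Hspa1a depends on the 0.5 CPM added, and Cirbp lies alone at the lower left.

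The most abundant genes were not those with the largest ratios. By mean level per kilobase of exon over libraries 2 and 3, the highest after Hsp90ab1 were Cct2 (152 CPM per kb), Cct5 (108) and Cirbp (85.6), and the lowest were Hspa1b (1.11), Bag3 (0.141) and Hspa1a (0.119). Neighbouring genes in the middle of this order, such as Hspa9 (51.5), Hspa4 (48.9) and Hspa8 (48.6), lie closer together than their libraries spread.

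Between genotypes none of the 34 genes was called over all 6 libraries (edgeR quasi-likelihood test, adjusted p under 0.05), where 0.404% of tested genes were called. DESeq2 and limma-voom also called 0 of 34, where they called 349 and 48 of 13604 tested genes. At an unadjusted p under 0.05 there were 3 of 34, Hspa9, Hspa4 and Bag3, against 13.4% of tested genes. DESeq2 gave 3 and limma-voom 4, against 1800 and 1911 of 13604 tested genes. The smallest edgeR adjusted p was 0.292. The count of 0 depended on wild-type library 4. Without it edgeR called 11 of 34 higher in the knockout, where 4.53% of 13901 tested genes were called higher. These were Hspa4, Hspa9, Hspe1, Hsp90ab1, Ahsa1, St13 and the 5 TRiC subunits. Without any 1 of the other 5 libraries it called 0. Leaving out wild-type library 4 alone keeps knockout library 4 in the comparison. That unevenness lies along the contrast in view when the set was chosen, so the 11 are no independent evidence on genotype. Hsph1, whose spread within each genotype was far larger than the difference of its means, was 120 ± 83.1 CPM in the knockout and 112 ± 89.8 CPM in wild type (SD, n = 3).

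The 3 genes whose genotypes did not overlap were Hspa9, Hspa4 and Bag3. Where both libraries numbered 4 lie above all the others, or both below, the genotypes must overlap. That was so for 28 and 1 of the 34 genes. The lack of a shared library 4 step in these 3 was thus fixed in advance, and their number is read no further. Hspa9 was 221 ± 6.41 CPM in the knockout and 192 ± 12.2 CPM in wild type (SD, n = 3), a log2 difference of 0.20 ± 0.07 (SE; edgeR adjusted p = 0.292). Hspa4 was 293 ± 4.18 CPM against 258 ± 22.1 CPM (SD, n = 3), a log2 difference of 0.18 ± 0.08 (SE; edgeR adjusted p = 0.358). In both, all 3 knockout libraries lay above all 3 wild-type ones, which holds for 10.2% of tested genes. Bag3 was 0.226 ± 0.112 CPM against 0.501 ± 0.213 CPM (SD, n = 3), a log2 difference of -1.16 ± 0.46 (SE; edgeR adjusted p = 0.328), with all knockout libraries below, as for 8.28% of tested genes. An exact permutation test of 3 against 3 libraries cannot give a two-sided p below 0.1.

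Within libraries 2 and 3 alone, a comparison that leaves out library 4 of both genotypes, 20 of the 34 genes were higher in the knockout. edgeR called these 20 higher and 4 lower (Hsf1, Dnaja1, Bag3 and Cirbp), where 13.6% of 13800 tested genes were called higher and 10.4% lower. Both knockout libraries lay above both wild-type ones in 24 of 34 genes (32.5% of tested genes) and below in 5 (31.5%). With 2 libraries a side the spread is estimated from few values, and the genotypes also differ in the sex-linked transcripts given above, whose part in this result was not tested. The share of mitochondrial counts moved with this comparison as well, at 2.70 and 2.37% in knockout libraries 2 and 3 against 2.01 and 2.12% in wild type. In the libraries numbered 4 it was 2.40% in the knockout and 2.86% in wild type, and these held the fewest genes with a count, 18779 and 18539 against 19253 to 19591 in the other 4. They were also the shallowest, with 39872470 and 35101788 counts against 41995719 to 45401781, so that depth and the number of genes found cannot be told apart. The part of these signs in the differences was not tested.

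By role, the 2-against-2 comparison reached most classes of the set, although the fit over all 6 libraries called 0 of the 34 genes. Setting libraries 2 and 3 apart follows the contrast in view when the set was chosen. The values below therefore describe these 4 libraries and are no independent evidence on genotype. All 5 TRiC subunits were higher in the knockout, Cct5 by 1.39-fold (edgeR adjusted p = 0.000111), Cct3 by 1.31-fold, Tcp1 by 1.22-fold, Cct8 by 1.21-fold and Cct2 by 1.19-fold. All 3 mitochondrial chaperones were higher, Hspe1 by 1.48-fold (adjusted p = 0.000263, edgeR), Hspd1 by 1.31-fold and Hspa9 by 1.19-fold. Hsp90ab1 was 1.43-fold higher, a log2 difference of 0.52 ± 0.07 (SE; adjusted p = 0.000124, edgeR), whereas Hsp90aa1, at 1.13-fold, did not pass (adjusted p = 0.0664, edgeR). Of the HSP90 cochaperones Ahsa1, Fkbp4, Cacybp and Fkbp5 were higher, and Chordc1 and Ptges3 did not pass. Cirbp was lower, at 0.852 times the wild-type level (adjusted p = 0.0122, edgeR), as was Dnaja1 at 0.856 times (adjusted p = 0.0258, edgeR).

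The inducible HSP70 pair had the largest difference in these libraries. Hspa1b was 9.72-fold higher in the knockout, a log2 difference of 3.28 ± 0.47 (SE; edgeR adjusted p = 0.00685) and Hspa1a 6.55-fold, a log2 difference of 2.71 ± 0.58 (SE; edgeR adjusted p = 0.00353). From the counts alone Hspa1a gave 52 in the knockout against 8 in wild type, a ratio of 6.69 with an exact 95% interval of 3.16 to 16.3, and Hspa1b 479 against 51, a ratio of 9.67 with an interval of 7.24 to 13.2. These intervals cover counting error only. The other 18 genes called higher differed by 1.149-fold to 1.48-fold.

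In the libraries numbered 4 the genotypes were nearly level in the median, while single genes differed, the inducible HSP70 pair most. Over the 34 genes the median log2 difference between knockout and wild type was 0.25 in libraries 2 and 3 and 0.03 in library 4, where all tested genes had -0.0043 and -0.0002. In library 4 the difference ran from -0.19 (Fkbp4) to 1.06 (Hspa1a), with 1 library a side and no test. Outside the pair it reached 0.27 for Dnajb4 and 0.22 for Hsf2, as large as some differences called in libraries 2 and 3 (0.22 for Dnaja2). When a term for the libraries numbered 4 was added to the fit over all 6, edgeR called 2 of 34 higher in the knockout, Hspa1a (adjusted p = 0.0380) and Hsp90ab1 (adjusted p = 0.0486), and none lower, where 2.59% of tested genes were called higher and 1.81% lower.

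**Figure D4:**
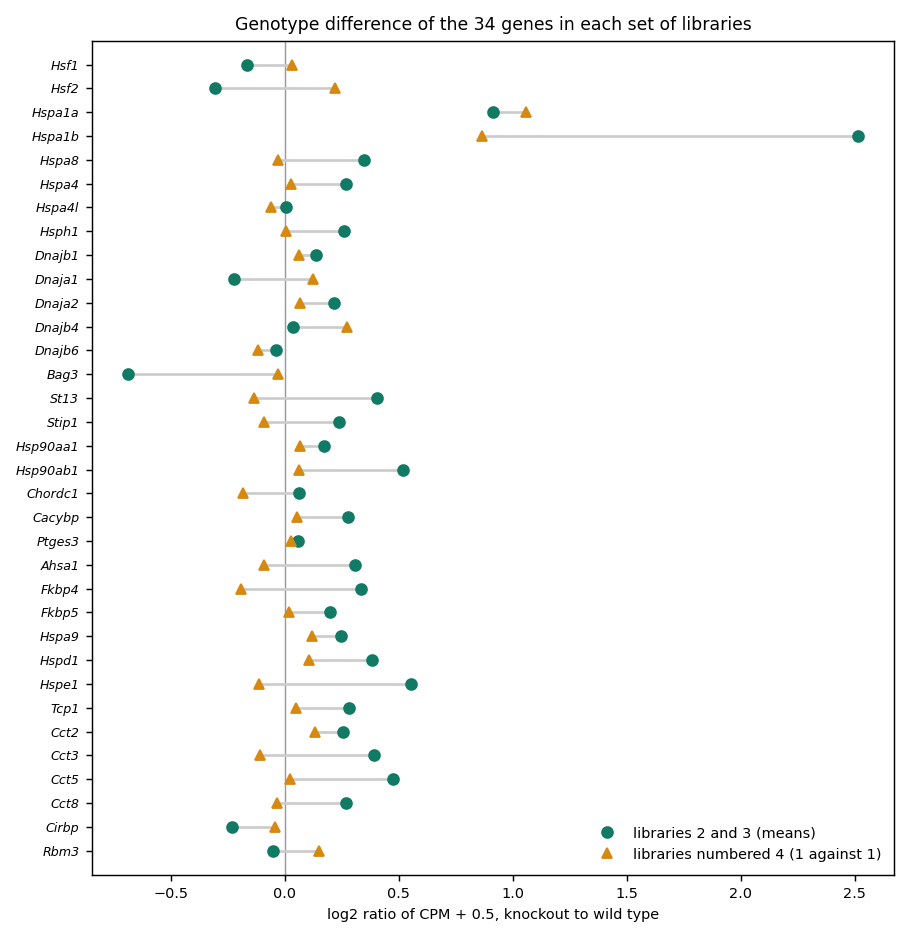
Log2 ratio of knockout to wild type (x axis, CPM + 0.5) for each of the 34 genes (y axis), from the means of libraries 2 and 3 (circles) and from the libraries numbered 4 (triangles, 1 against 1). The differences in libraries 2 and 3 lie mostly above 0, with a median of 0.25, and those in library 4 lie around 0, with a median of 0.03. The added 0.5 CPM shrinks the differences of the lowest genes. In libraries 2 and 3 Hspa1a lies at 0.91 and Bag3 at -0.69, where the edgeR fit gave 2.71 and -1.78. The order of the 2 symbols of Hspa1a, with library 4 at 1.06, is therefore not to be read.

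Another 67 genes of the chaperone network, of which 62 were tested, were described in the same way. None was at least 1.5-fold higher or lower in library 4 in both genotypes, where 0.316% and 0.904% of tested genes were. At such shares few or none of 62 would be counted, so the absence is read no further. In 23 both libraries numbered 4 lay above the other 4 (17.5% of tested genes), and in 7 below (18.6%). Their median log2 ratio was 0.08 in the knockout and 0.16 in wild type. The 23 were 6 of 9 other TRiC and prefoldin subunits, 5 of 13 J-domain proteins, 2 of 13 HSP70 family members and cochaperones, 3 of 11 HSP90 cochaperones, 3 of 9 mitochondrial chaperones and proteases, and 4 of 7 small heat-shock proteins and HSF1 targets. Among the other TRiC and prefoldin subunits, which feed and form the same chamber, Cct6a had ratios of 1.23 and 1.53 and Pfdn4 of 1.30 and 1.55. Dnajb2, a J-domain protein, had 1.28 and 1.46, and Dnajc21, a factor of ribosome assembly, 1.26 and 1.17. The HSP90 cochaperones Sugt1 and Ppid had 1.17 and 1.38, and 1.19 and 1.12. In mitochondria, Clpx, the unfoldase of the Clp protease, had 1.22 and 1.17 and Grpel1, the exchange factor of mitochondrial HSP70, 1.06 and 1.35. Hspa12a, a distant HSP70 relative, had 1.12 and 1.67, and Bag6, which escorts exposed membrane segments, was lower in library 4 at 0.896 and 0.846 times libraries 2 and 3. Dedd2, listed with the HSF1 targets, had 1.72 and 1.36, whereas the small heat-shock protein Hspb6 was lower in library 4, at 5.13, 4.91 and 3.38 CPM in the knockout and 5.59, 5.84 and 3.20 CPM in wild type.

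Between genotypes edgeR called 0 of these 62 over all 6 libraries (0.404% of tested genes). At an unadjusted p under 0.05 there were 10 (16.1%, against 13.4% of all tested genes). By limma-voom 0 were called (48 of 13604 tested genes) and by DESeq2 1 (349 of 13604), Hspa2, a testis-enriched HSP70. Hspa2 was lower in the knockout and is named after its value was seen. Without wild-type library 4 edgeR called 8 of them, all higher (4.53% of tested genes), and without knockout library 4 it called 1, Ier5, lower (0.626% of tested genes). In libraries 2 and 3 alone edgeR called 17 higher in the knockout and 5 lower, where 13.6% and 10.4% of all tested genes were called. Of these 17, 8 were among the 9 other TRiC and prefoldin subunits, 3 among the HSP70 family members and cochaperones, 2 each among the J-domain proteins and HSP90 cochaperones, and 1 each among the mitochondrial proteins and HSF1 targets. The 5 called lower, named after their values were seen, were Hspa2, the ubiquitin ligase Stub1, Tsc1, Dedd2 and Ier5.

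Immediate early genes, the fast first responders of a cell to outside signals, differed between the libraries in another way. The summed level of 24 such genes was 2911, 2826 and 6024 CPM in knockout libraries 2, 3 and 4 and 5385, 4884 and 5498 CPM in wild type, so that knockout libraries 2 and 3 stood below the other 4. In the knockout 21 of the 22 tested genes were higher in library 4 than in libraries 2 and 3, against 38.1% of all tested genes, and in wild type 11 of 22, against 41.0%. In libraries 2 and 3 edgeR called 16 of the 22 lower in the knockout and 0 higher, where 10.4% and 13.6% of all tested genes were called. A single gene, Nr4a3, named after its values were seen, was at least 1.5-fold higher in library 4 in both genotypes (0.316% of tested genes). Of the other cell types listed, the erythroid and platelet markers were highest in the libraries numbered 4. In both, 4 of 9 genes were above the other 4 libraries (17.5% of tested genes). Their summed level was 10.1, 11.7 and 16.9 CPM in the knockout and 8.20, 14.04 and 21.8 CPM in wild type. The part of these differences in those of the chaperones was not tested.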

How the data were processed

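RNA was measured in 6 libraries of splenic naive B cells, 3 per genotype, which the labels' protocols say were made with Trizol, RNeasy and a TruSeq stranded mRNA preparation. The deposited counts are whole fragment counts per gene name, made with featureCounts 1.5.1 over exons, paired and without a strand option, per the file headers. The submitters' processing notes name STAR 2.3.0e and GRCm38.p3, and the headers name GENCODE vM3. Counting without strand mixes overlapping genes of opposite strands. The table's 6 other count columns were not used, and summed exon length, also deposited by the authors, scaled levels per kilobase.

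CPM used TMM-normalised library sizes. Genes passing filterByExpr (minimum count 10) were compared between genotypes with edgeR 4.0.16 (quasi-likelihood F test, robust, R 4.3.3), Benjamini-Hochberg adjusted over all 13604 tested genes at 0.05, and checked on simulated counts. DESeq2 1.42.0, limma-voom (limma 3.58.1), other scalings and filters, a replicate block, a term for library 4, and leaving libraries out were alternatives. The genes, lists and tests were chosen with earlier results of these data known. Values in every library were given for genes past 1.5-fold in library 4 or at an unadjusted p under 0.05, for both Hsf genes, Rbm3 and, beyond that rule, Hsp90ab1. Of each wider list up to 2 genes were named, those with a mean of at least 2 CPM and the largest absolute log2 ratio of library 4. Shared 50-base words were counted over the transcripts of a later GENCODE release.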

Additional observations from a re-analysis of the deposited data

Results flagged for a closer look

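In 3 genes library 4 lay on opposite sides of libraries 2 and 3 in the knockout and in wild type. For Hsf1 the log2 ratio of library 4 to the mean of libraries 2 and 3 was 0.045 in the knockout and -0.15 in wild type. For Hspa4 it was -0.036 in the knockout and 0.20 in wild type. For Bag3, which had 33 counts or fewer in every library, it was 0.36 in the knockout and -0.29 in wild type, and with no 0.5 CPM added the ratio itself was 2.17 and 0.655. None of these differences was tested, since each rests on 1 library 4 a side.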

How the results depend on the processing

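Among the 34 genes, 0 were called between genotypes under every scaling, both other filters, DESeq2, limma-voom and the replicate block. Changing how the libraries numbered 4 entered, which touches the contrast in view when the set was chosen, did change this. There were 2 called with a term for library 4, 24 in libraries 2 and 3 only (599 of 13604 and 3307 of 13800 tested genes), and 0 to 11 when 1 library was left out, the 11 coming without wild-type replicate 4 (900 of 13901). At an unadjusted p under 0.05 the count went from 3 to 5 with no filter (9.75% of tested genes), 14 with the replicate block (20.7%), 18 with the term for library 4 (25.1%), 27 in libraries 2 and 3 only (36.2%), and 0 to 18 when 1 library was left out, the 18 without wild-type replicate 4 (25.8%). Of the 62 wider chaperone genes 4 were called with the term for library 4, 1 by DESeq2, 22 in libraries 2 and 3 only, and 0 to 8 with 1 library left out. The cause of these differences was not tested.

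At 2-fold in place of 1.5-fold, 6 of 34 genes were higher in library 4 in both genotypes and 0 lower, where 8 and 7 of 13604 tested genes were. Genes lower in both libraries numbered 4 numbered 2 with upper-quartile scaling (3058 of 13604 tested genes), Rbm3 beside Cirbp, and 1 to 2 with 1 of libraries 2 or 3 left out. Scaling moved the median genotype difference of all tested genes to between -0.051 and -0.0091.

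The sign of the log2 genotype difference was followed through every alternative for 19 of the 34 genes, and leaving out 1 library changed it for 13 of them. It ran from -0.34 to 0.045 for Hsf2, -0.0026 to 4.27 for Hspa1a, -0.20 to 0.71 for Hspa8, -0.63 to 0.996 for Hsph1, -0.52 to 0.75 for Dnajb1, -0.93 to 0.70 for Dnaja1, -0.29 to 0.60 for Stip1, -0.27 to 0.57 for Hsp90aa1, -0.41 to 0.41 for Chordc1, -0.31 to 0.75 for Cacybp, -0.31 to 0.42 for Ptges3, -0.43 to 0.011 for Cirbp and -0.059 to 0.062 for Rbm3. It also changed sign for Dnaja1 with no filter (0.0049), for Chordc1 in libraries 2 and 3 only (0.061), and for Rbm3 with library-size scaling (-0.038), upper-quartile scaling (-0.0067) and libraries 2 and 3 only (-0.053). Of the other 15 genes, compared only with libraries 2 and 3 alone, Hspa4l changed sign, from -0.019 to 0.0071.

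The replicate numbers were not taken to pair the libraries. Deviations from the group means over 13604 genes correlated at 0.0857 for the pair numbered 2, 0.220 for 3 and 0.395 for 4, and knockout library 2 correlated better with wild-type library 3 (0.239). Depth limits Hspa1a and Bag3, with 2 to 34 counts in several libraries, and 3 libraries a side limit every adjusted p.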
